A study of Mus musculus with 12 samples.

Results

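The aortic arch of Apoe-/- mice after 16 weeks on a high-fat diet was set against the same tissue after 8 weeks on that diet. The comparison used 6 of the 12 arrays of the series, assigned by their labels: pools 4, 5 and 6 at 16 weeks and pools 1, 2 and 3 at 8 weeks. All of these mice lacked Apoe, were of strain C57BL/6 and received no drug. Their high-fat chow, from Harlan Teklad, held 21% fat and 0.15% cholesterol and was given from 8 weeks of age, so the mice were 24 weeks old in the 16-week group and 16 weeks old in the 8-week group. Age and length of diet therefore cannot be told apart. Each pool joined the arches of 3 mice, except pool 2, which held 2. The other arrays were 3 pools of Apoe-/- mice at 24 weeks of diet (32 weeks old) and 3 pools of wild type C57BL/6 mice. The wild type mice had 16 weeks of diet and were 24 weeks old. The sex of the mice is not stated in the labels.

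Apolipoprotein E carries remnant lipoproteins to the liver, and mice without it build up cholesterol-rich particles in blood. These particles lodge in the inner layer of the artery, above all in the curve of the aortic arch, where monocytes enter, take them up and become foam cells. As a lesion grows, smooth muscle cells lose contractile proteins and move inward, matrix is laid down and broken down, and cartilage-like or bone-like matrix can appear.

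Every value below is a log2 ratio of a pool over a common Apoe-/- reference that mixed RNA of all 3 diet times, labelled as 21 mice. The labels call this reference a vehicle pool, while they mark the Apoe-/- pools set against it as no drug. Any effect of the vehicle was not tested. A ratio of 0 means as much as in the reference, and each unit is a factor of 2. The base of the deposited logarithm is not stated and was taken as 10, so every size below rests on that reading, while signs, the order of values, p-values and counts of calls do not. In base 2 the largest rise would be 1.89-fold in place of 8.24-fold, and 0 of the called genes would reach a 2-fold rise. The ratios hold no intensities, so neither a gene's level nor its absence can be read from them. In bulk tissue, fewer cells of a type and less RNA per cell cannot be told apart. The deleted gene, Apoe, had log2 ratios of -0.16, 0.03 and -0.08 in pools 4, 5 and 6 at 16 weeks, against -0.15, -0.10 and -0.20 in pools 1, 2 and 3 at 8 weeks. Wild type pools gave 2.62, 2.01 and 2.85. The 2 Apoe-/- groups overlapped and the wild type pools lay apart from both, as the labels have it.

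Of 19705 genes tested, 472 differed between 16 and 8 weeks (2.40%), at a Benjamini-Hochberg adjusted p under 0.05 in a limma fit over all 12 arrays. Of these, 372 were higher at 16 weeks (1.89% of genes) and 100 were lower (0.507%), and the median difference over all genes was -0.011. At least a 2-fold rise was measured for 141 genes and at least a 2-fold fall for 3. The pools of the 2 times did not overlap for any of the 472, against 16.4% non-overlapping among all genes. This count rests on the spread estimated over all 12 arrays and on the arrays' scale as deposited. With only the 6 arrays of the comparison limma called 0 genes, with 1914 at an unadjusted p under 0.05, against 2969 in the fit over 12 arrays. Quantile normalization left 1 gene, the G protein subunit gene Gng2, and scaling every array to an equal spread left 0. In these 3 fits no gene of any list described below was called. All 472 differences kept their sign with 6 arrays and after scaling, and 458 of them after quantile normalization. The count was 167 without pool 5, 246 without pool 4, 153 without pools 3 and 6, which carry an asterisk in the labels, and 758 without pool 1. A set of 157 calls, 132 higher and 25 lower, passed whichever single array was left out.

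**Figure D1:**
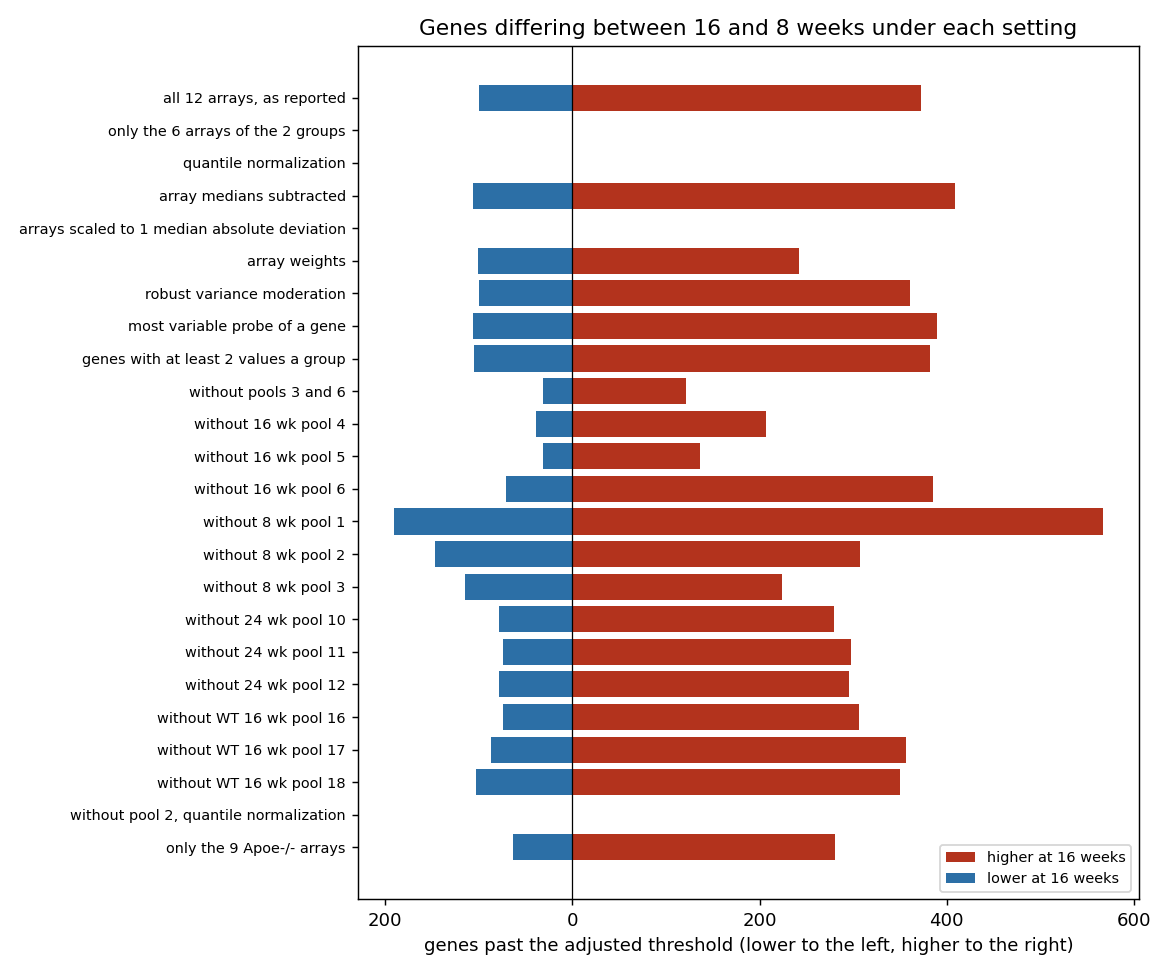
Number of genes past the adjusted threshold between 16 and 8 weeks (x axis, higher at 16 weeks to the right and lower to the left) under each way of fitting (y axis). The bars reach 372 and 100 in the reported fit, and no bar is visible for the fit of 6 arrays, for quantile normalization with or without pool 2, or for scaled arrays.

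Pool 2 stood apart from the other arrays. The interquartile range of its ratios was 0.466, against 0.118 to 0.323 on the other 11 arrays, and limma's array weights gave it the lowest weight, 0.15. The 6 arrays correlated positively with each other across genes, with r from 0.14 to 0.66. The 24-week arrays had a negative median correlation with those at 8 weeks (r = -0.54), at 16 weeks (r = -0.32) and of wild type (r = -0.48). The direction of the ratios was kept, since it was read from the dyes in the labels and from Apoe in wild type. Among the 372 genes that rose, pool 5 was the highest 16-week pool for 304, and pool 1 the highest 8-week pool for 284. For these genes the 8-week pool nearest to the 16-week group was thus most often pool 1. Pool 5 also had the narrowest interquartile range at 16 weeks, 0.124, against 0.183 in pool 4 and 0.228 in pool 6. Pool 1 had the narrowest at 8 weeks, 0.168, against 0.323 in pool 3. The part of array scale in these ranks was not tested.

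The largest rises were in Ibsp and Bex1. Ibsp, which encodes bone sialoprotein, a mineral-binding protein of bone matrix, had log2 ratios of -1.17, -0.29 and -1.30 in pools 4, 5 and 6 at 16 weeks, against -4.24, -3.45 and -4.21 in pools 1, 2 and 3 at 8 weeks. All 3 later pools lay more than 2 units above all 3 earlier ones. The rise was 8.24-fold (95% confidence interval 5.33 to 12.8, adjusted p = 0.00377) and passed whichever array was left out. Bex1, a small adaptor protein first known from the brain, had log2 ratios of -0.89, 0.27 and -0.81 at 16 weeks, against -2.69, -3.89 and -3.89 at 8 weeks. It rose 8.08-fold (interval 4.77 to 13.7, adjusted p = 0.00513).

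Promoters are shown for 3 genes with large changes that had an entry in the promoter table, to set their letters beside their values. Sequences are those of RefSeq for build GRCm38.p6, in a window that runs from upstream of the annotated start to just past it, read 5′ to 3′ on the gene's own strand, and 33 of the 40 genes with the largest rises and falls had an entry. Capitals mark a match, on either strand, to 1 of 4 motifs: the PU.1 core GAGGAAGT, the E-box CACGTG, the AP-1 site TGANTCA, or the CArG box that binds serum response factor. Ibsp and Bex1 rose, and Gkn3, a gastrokine gene, fell.
Ibsp, chr5:104299037-104299336, plus strand: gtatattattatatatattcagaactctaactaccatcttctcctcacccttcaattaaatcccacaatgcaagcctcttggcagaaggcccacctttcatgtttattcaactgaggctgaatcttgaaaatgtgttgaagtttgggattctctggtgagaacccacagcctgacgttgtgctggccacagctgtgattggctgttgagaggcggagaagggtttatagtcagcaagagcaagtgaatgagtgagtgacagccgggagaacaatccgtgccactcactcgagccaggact
Bex1, chrX:136215464-136215763, minus strand: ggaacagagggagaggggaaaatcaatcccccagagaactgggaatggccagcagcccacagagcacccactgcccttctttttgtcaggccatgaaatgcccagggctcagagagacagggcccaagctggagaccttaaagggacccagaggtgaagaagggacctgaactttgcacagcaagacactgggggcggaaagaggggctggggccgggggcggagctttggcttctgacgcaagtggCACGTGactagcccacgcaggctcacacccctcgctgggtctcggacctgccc
Gkn3, chr6:87388886-87389185, minus strand: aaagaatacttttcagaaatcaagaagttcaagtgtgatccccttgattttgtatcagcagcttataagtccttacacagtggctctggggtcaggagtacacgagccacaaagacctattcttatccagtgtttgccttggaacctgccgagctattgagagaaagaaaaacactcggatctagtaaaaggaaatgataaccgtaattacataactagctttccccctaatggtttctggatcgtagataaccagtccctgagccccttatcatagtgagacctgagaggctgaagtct
Bex1 held 1 E-box across the annotated start, a motif found in 7.15% of the 32851 promoters of the table. Neither Ibsp nor Gkn3 held any of the 4, nor did the promoters of Il7r, Hoxb8 and 4631405J19Rik, the other genes searched. In all promoters the PU.1 core was found in 3.20%, the AP-1 site in 7.81% and the CArG box in 1.63%. A match is a run of letters, not a shown binding site, and a missing match says nothing of the factor.

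**Figure D2:**
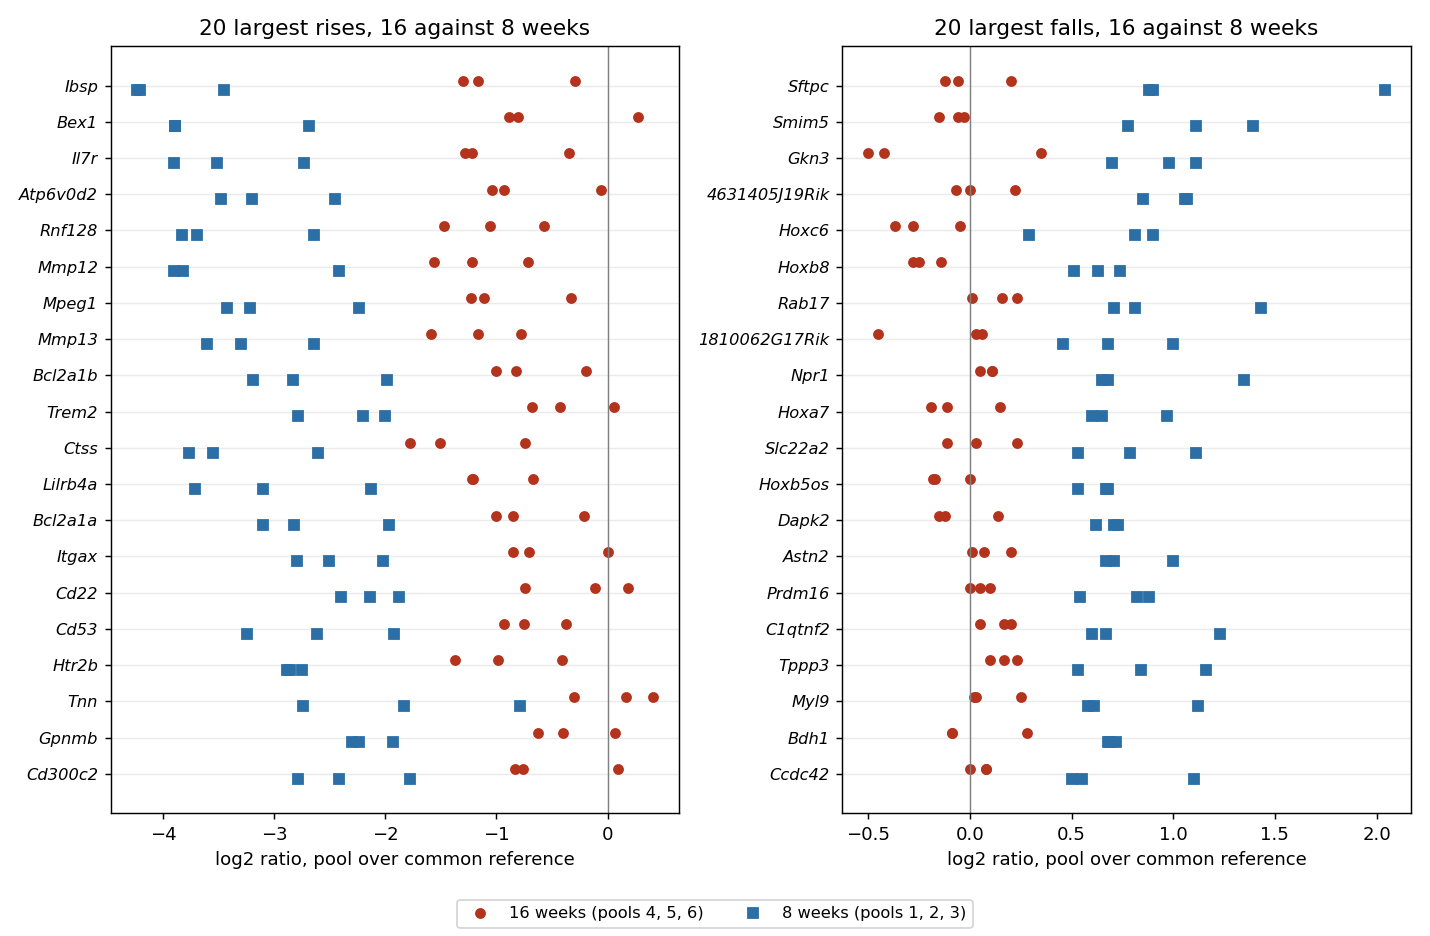
Log2 ratio of each pool over the reference (x axis) for the 20 genes with the largest rise and the 20 with the largest fall (y axis), with circles for the 3 pools at 16 weeks and squares for the 3 pools at 8 weeks. Circles and squares do not overlap for any of the 40 genes, which were chosen that way. The falls span a narrower range than the rises.

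Many genes that mark macrophages were higher at 16 weeks. Of 26 measured, 18 rose and none fell, against 1.89% of all genes rising, and their median difference was 1.16. The gene lists were chosen with earlier results of these data known, so neither this count nor those of the lists below is independent evidence of a direction. Every list count below stands against the same shares of all genes, 1.89% rising and 0.507% falling. Mean log2 ratios over the list were -0.68, -0.18 and -0.63 in pools 4, 5 and 6 at 16 weeks, against -1.35, -1.65 and -1.76 in pools 1, 2 and 3 at 8 weeks, with no overlap. Mpeg1, the pore-forming perforin-2 of phagocytes, had log2 ratios of -1.23, -0.33 and -1.11 at 16 weeks, against -2.24, -3.43 and -3.22 at 8 weeks. It rose 4.21-fold (interval 2.60 to 6.80, adjusted p = 0.00813). Itgax, the integrin subunit CD11c of dendritic cells and lesional macrophages, rose 3.79-fold (adjusted p = 0.00513). Lgals3, the lectin galectin-3, and Fcgr3, an activating receptor for antibody, each rose 3.17-fold (adjusted p = 0.00513 for each). Adgre1, named as the gene of the defining mouse macrophage marker F4/80, rose by 1.65 ± 0.27 (log2 difference with its SE, adjusted p = 0.0104). Members outside the rule for naming genes did not all move: Cd68 differed by 0.09 (adjusted p = 0.61), and Itgam by -0.12 (adjusted p = 0.854). The list's count was 8 without pool 5 and 4 without pools 3 and 6, and 8 genes passed whichever array was left out. The list's median was 0.40 after quantile normalization and 0.70 after scaling.

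Resident macrophage genes held no call. Of 12 measured, none passed in limma, and their median difference was 0.27. Cd163, a hemoglobin scavenger receptor, had log2 ratios of 0.13, 0.36 and 0.68 at 16 weeks, against -0.57, -0.54 and 0.24 at 8 weeks, so pool 4 lay below pool 3. Its difference was 0.69 ± 0.22 (adjusted p = 0.151), and it passed without pool 3. Stab1, a scavenger receptor of resident macrophages and sinusoidal endothelium, differed by 0.45 ± 0.14 (adjusted p = 0.139). The difference between the resident list and the general macrophage list was not tested.

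Genes of lipid-loaded macrophages gave the largest share of any list. Of 21 measured, 16 rose and none fell, with a median difference of 1.30. The lists share members: of these 16, only Trem2, Gpnmb and Fabp5 were on no other list. Counts of lists that share members are therefore not separate results. Gpnmb, a glycoprotein of lysosomal membranes, had log2 ratios of -0.63, 0.07 and -0.40 at 16 weeks, against -1.93, -2.24 and -2.30 at 8 weeks. It rose 3.58-fold (interval 2.69 to 4.77, adjusted p = 0.00377). Trem2, the lipid-sensing receptor that marks foamy macrophages, had log2 ratios of -0.68, 0.06 and -0.43 at 16 weeks, against -2.0, -2.20 and -2.79 at 8 weeks. It rose 3.94-fold (interval 2.69 to 5.77, adjusted p = 0.00513). The fatty acid binding protein gene Fabp5 rose by 1.69 ± 0.24 (adjusted p = 0.00682). The count was 10 without pool 5 and 7 without pools 3 and 6, and 10 genes passed whichever array was left out. The list's median was 0.48 after quantile normalization and 0.47 after scaling, with 0 genes called in limma in either.

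Lipid storage and cholesterol export genes were split. Of 22 measured, 5 rose and none fell, with a median of 0.09. Soat1, the enzyme that esterifies cholesterol for storage in droplets, had log2 ratios of -0.85, -0.17 and -0.78 at 16 weeks, against -1.80, -2.49 and -2.13 at 8 weeks, and rose 2.90-fold (adjusted p = 0.00513). Abcg1, which exports cholesterol to high-density lipoprotein, rose 3.05-fold (adjusted p = 0.007), and lipoprotein lipase, Lpl, rose 2.46-fold (adjusted p = 0.00857). The phospholipid transfer protein Pltp rose 1.79-fold (adjusted p = 0.0149), and the droplet coat protein Plin2 rose by 0.65 ± 0.12 (adjusted p = 0.0193). The count was 3 without pool 3 or pool 5 and 1 without pools 3 and 6, and without pool 1 the lipase gene Pnpla2 fell. Of 18 cholesterol synthesis genes none passed in limma, and the median was -0.01. Insig1, which holds sterol regulatory proteins in the endoplasmic reticulum, differed by 0.37 ± 0.13 (adjusted p = 0.209), and the reductase gene Tm7sf2 by -0.23 ± 0.09 (adjusted p = 0.235). Of 18 scavenger and dead-cell receptors none passed in limma, with a median of 0.10, and Itgav, the integrin subunit that binds dying cells, differed by 0.29 ± 0.10 (adjusted p = 0.185). Without pool 2 the scavenger receptor Msr1 rose.

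Many lysosomal genes were also higher at 16 weeks. Of 24 measured, 12 rose and none fell, against 1.89% of all genes rising, with a median of 0.62. Among the 12, Ctss is also on the macrophage list, and Ctsb, Ctsd, Ctsl and Cd63 are on the list of lipid-loaded macrophages. Ctss, cathepsin S, an elastin-degrading protease of macrophages that also trims the invariant chain of class II molecules, had log2 ratios of -1.78, -0.74 and -1.51 at 16 weeks, against -2.61, -3.77 and -3.55 at 8 weeks. It rose 3.91-fold (interval 2.46 to 6.22, adjusted p = 0.00813). Npc2, which hands cholesterol out of the lysosome, rose 2.08-fold (adjusted p = 0.00532), and cathepsin Z, Ctsz, 1.76-fold (adjusted p = 0.00813). These 3 passed whichever array was left out. Acp5, a tartrate-resistant acid phosphatase, rose 2.24-fold (adjusted p = 0.0145). Without pool 3 the count was 5, without pool 5 it was 3, and without pools 3 and 6 it was 2. The median of the list was 0.11 after quantile normalization and 0.34 after scaling.

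The vacuolar proton pump, which acidifies lysosomes, gave 3 rises among 15 measured subunits and a median of 0.35. Atp6v0d2, the subunit of osteoclasts and foamy macrophages, had log2 ratios of -1.04, -0.06 and -0.93 at 16 weeks, against -2.45, -3.48 and -3.20 at 8 weeks. It rose 5.16-fold (interval 3.36 to 7.92, adjusted p = 0.00513) and passed whichever array was left out. The other rises were smaller: Tcirg1, the membrane subunit of bone-resorbing cells, rose 1.83-fold (adjusted p = 0.0296), and Atp6v1b2 rose 1.31-fold (adjusted p = 0.0269). The 2 probes of Atp6v1b2 disagreed, with differences of -0.05 and 0.84. Atp6v0d2 was the single rise left without pool 3, 5 or 6 in turn, or without pools 3 and 6 together.

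**Figure D3:**
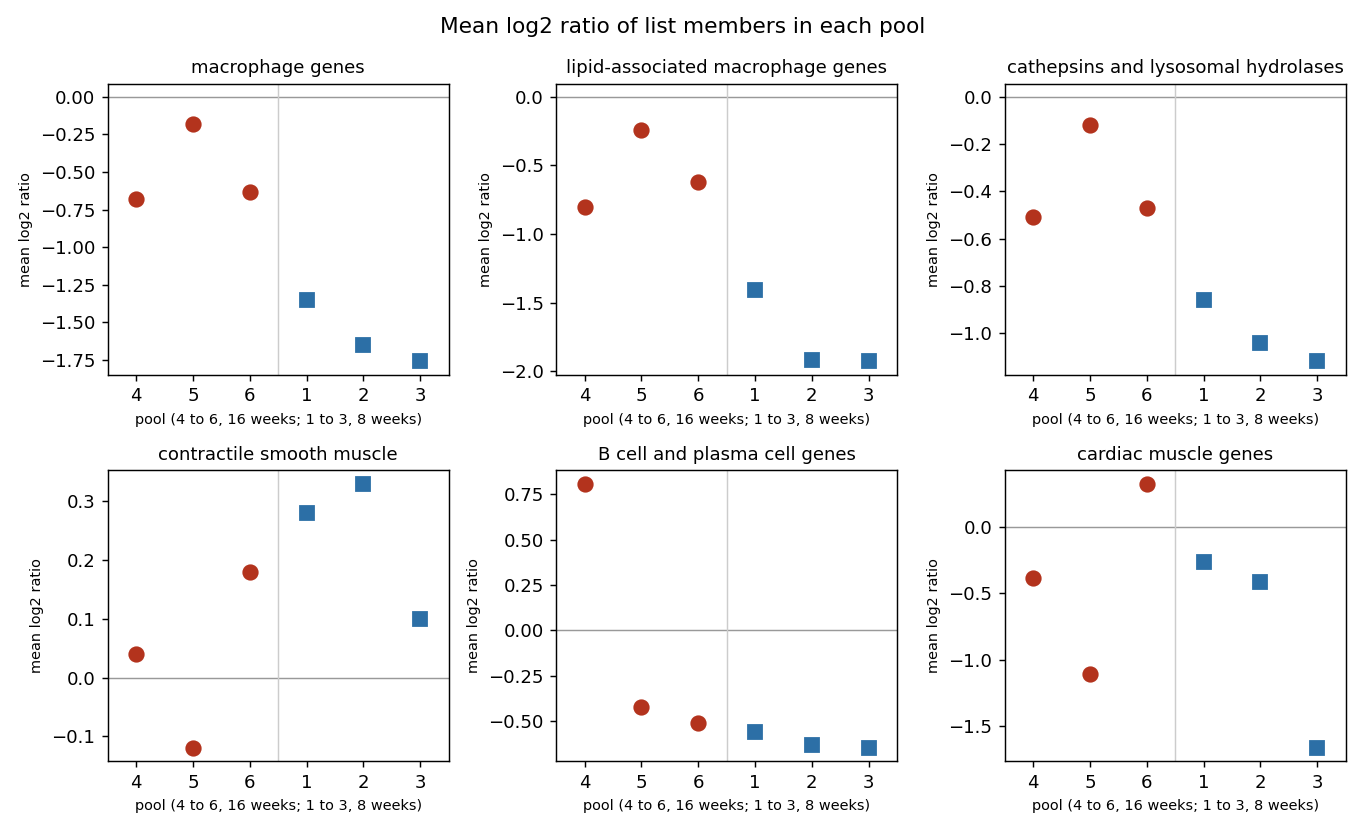
Mean log2 ratio of the measured members of 6 gene lists (y axis) in each pool (x axis), with the 16-week pools 4, 5 and 6 as circles on the left and the 8-week pools 1, 2 and 3 as squares on the right. The macrophage, lipid-associated and lysosomal means do not overlap between times, the smooth muscle and cardiac means do, and the B cell mean stands out in pool 4.

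Few matrix-degrading enzymes and their inhibitors moved, but those that did moved far. Of 25 measured, 4 rose and none fell, with a median of 0.07. Mmp12, the elastase of macrophages, had log2 ratios of -1.56, -0.72 and -1.22 at 16 weeks, against -2.42, -3.82 and -3.90 at 8 weeks. It rose 4.63-fold (interval 2.77 to 7.74, adjusted p = 0.00813). Mmp13, a collagenase, had log2 ratios of -1.59, -1.17 and -0.78 at 16 weeks, against -2.64, -3.30 and -3.61 at 8 weeks, and rose 4.01-fold (adjusted p = 0.00813). Adam8, a membrane protease of leukocytes, rose 3.05-fold (adjusted p = 0.00513), and Plau, the urokinase that activates plasmin, 2.65-fold (adjusted p = 0.00813). All 4 passed whichever single array was left out, and Adam8 alone passed without pools 3 and 6 together. Without wild type pool 18 the membrane-bound protease gene Mmp17 fell. Among members outside the naming rule, the tissue inhibitor Timp1 differed by 1.24 ± 0.33 (adjusted p = 0.0815), and the stromelysin Mmp3 by 1.00 ± 0.29 (adjusted p = 0.112).

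Bone-related genes rose in part. Of 22 bone and cartilage matrix genes measured, 4 rose and none fell, with a median of 0.18. Besides Ibsp, Spp1, which encodes osteopontin, a secreted mineral-binding protein also made by foamy macrophages, had log2 ratios of -1.99, -1.45 and -1.59 at 16 weeks, against -2.70, -3.91 and -3.86 at 8 weeks. It rose 3.51-fold (interval 2.30 to 5.36, adjusted p = 0.00813), with differences of 1.60 and 2.03 for its 2 probes. Tnfrsf11b, osteoprotegerin, a decoy receptor that blocks osteoclast formation, had log2 ratios of -0.78, -0.68 and -0.69 at 16 weeks, against -1.70, -3.32 and -2.48 at 8 weeks. It rose 3.43-fold (interval 1.98 to 5.94, adjusted p = 0.0272), with tight values at 16 weeks and a wide spread at 8 weeks. Hapln1, the link protein that ties aggrecan to hyaluronan, rose 1.87-fold (adjusted p = 0.0166). The osteoblast regulators Runx2 and Sp7, named here as defining genes and not by the naming rule, differed by 0.43 ± 0.17 (adjusted p = 0.242) and -0.07 ± 0.07 (adjusted p = 0.667). Without pool 3, 4 or 5 in turn the count was 2, and without pools 3 and 6 it was 1.

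Of 13 osteoclast genes measured, 4 rose and none fell, with a median of 0.33. They were Atp6v0d2, Acp5, Tcirg1 and Ctsk. Ctsk, cathepsin K, the main collagen-degrading protease of bone resorption, had log2 ratios of -1.10, -0.37 and -0.78 at 16 weeks, against -1.45, -1.65 and -1.80 at 8 weeks. It rose 1.84-fold (adjusted p = 0.0213), but its difference was -0.11 after quantile normalization. Each of these genes is also expressed by macrophages or listed with the lysosomal genes above. The defining receptor of osteoclast formation, Tnfrsf11a, differed by -0.21 ± 0.08 (adjusted p = 0.213), and its ligand Tnfsf11 by 0.33 ± 0.29 (adjusted p = 0.633). Without pool 3 or pool 5 the count was 1, without pool 6 it was 2, and without pools 3 and 6 it was 1.

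Many signalling genes of myeloid cells were higher at 16 weeks. Of 15 Fc receptor and myeloid signalling genes measured, 10 rose and none fell, with a median of 0.99. Inpp5d, the lipid phosphatase SHIP1 that restrains receptor signalling, had log2 ratios of -0.41, 0.18 and -0.48 at 16 weeks, against -1.5, -2.09 and -1.69 at 8 weeks, and rose 2.87-fold (adjusted p = 0.00593). Vav1, a signalling protein of blood cells, rose 2.54-fold (adjusted p = 0.00813). Syk, the kinase downstream of Fc receptors, rose 1.54-fold (adjusted p = 0.00813), although its 2 probes differed by 0.02 and 1.23. The count was 5 without pool 2, pool 5 or pools 3 and 6, and 6 without pool 3, 10, 11 or 12. The list's median was 0.26 after quantile normalization and 0.49 after scaling, with 0 genes called in limma in either. Of 8 genes of the NADPH oxidase, which makes superoxide in phagocytes, 2 rose: Ncf4 by 2.57-fold (adjusted p = 0.00813) and the small GTPase Rac2 by 2.27-fold (adjusted p = 0.0158). The membrane subunit Cybb, outside the naming rule, differed by 0.02 ± 0.10 (adjusted p = 0.955). The list's median was 0.02, and its count was 1 without pool 5.

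Of 14 Toll-like receptor genes and partners, 4 rose and none fell, with a median of 0.29. Ly96, the MD-2 protein that binds endotoxin, rose 1.48-fold (adjusted p = 0.00933), and its partner Cd14 rose 1.98-fold (adjusted p = 0.0116). Tlr2, a receptor for lipopeptides, rose 1.65-fold (adjusted p = 0.0228), and Tlr3, a receptor for double-stranded RNA, 1.38-fold (adjusted p = 0.0362). The difference of Cd14 was -0.10 after quantile normalization. The count was 0 without pool 5, 1 without pools 3 and 6, and 2 without pool 2, 3 or 4.

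Chemokines that attract monocytes rose along with some of their receptors. Of 25 ligands measured, 5 rose and none fell, with a median of 0.49. Ccl3, a ligand for receptors of monocytes and T cells, had log2 ratios of -1.04, -0.24 and -0.88 at 16 weeks, against -1.92, -2.14 and -2.20 at 8 weeks. It rose 2.58-fold (interval 1.81 to 3.67, adjusted p = 0.0118) and was the single rise that passed whichever array was left out. Ccl2, the main monocyte attractant, had log2 ratios of -0.79, -0.47 and -0.97 at 16 weeks, against -1.30, -2.41 and -2.19 at 8 weeks, and rose 2.33-fold (adjusted p = 0.0249). Cxcl14 rose 2.28-fold (adjusted p = 0.0323), Cxcl16, a membrane-bound ligand that also binds oxidized lipoprotein, 1.53-fold (adjusted p = 0.0439), and Ccl8 by 1.41 ± 0.32 (adjusted p = 0.0494). Neither probe of Cxcl16 passed on its own. The count of ligands was 1 without pool 4, pool 5 or pools 3 and 6, 2 without pool 2, 10 or 11, and 3 without pool 3, 12 or 18.

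Of 15 chemokine receptors measured, 3 rose: Cxcr4, a homing receptor of leukocytes, 2.83-fold (adjusted p = 0.00949), Cxcr6, the receptor for Cxcl16, 2.28-fold (adjusted p = 0.0198), and Cxcr3, a receptor of activated T cells, 1.67-fold (adjusted p = 0.025). Their list had a median of 0.20. Cxcr4 was the single rise left without pool 2, 3, 4 or 5, and Cxcr3 the single one without pools 3 and 6.

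Of 16 interleukin-1 family and inflammasome genes, 2 rose and none fell, with a median of 0.26. Il1rn, the natural antagonist of the interleukin-1 receptor, had log2 ratios of -0.74, -0.37 and -0.78 at 16 weeks, against -1.55, -2.94 and -2.30 at 8 weeks, and rose 3.10-fold (adjusted p = 0.0137). Nlrp3, the inflammasome sensor that responds to cholesterol crystals, rose 1.85-fold (adjusted p = 0.0336). The agonist Il1b, outside the naming rule, overlapped between times, with log2 ratios of 0.10, 0.28 and -0.98 at 16 weeks, against -0.54, -2.50 and -0.14 at 8 weeks. The count was 0 without pool 5 or pools 3 and 6, and 1 without pool 2, 4, 10, 11 or 12.

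Of 15 genes of class II antigen presentation and costimulation, 3 rose, with a median of 0.38. They were Ctss, described above, Cd86, 2.44-fold (adjusted p = 0.0199), and Cd80, 1.58-fold (adjusted p = 0.0374), the costimulatory ligands for CD28. The class II chains H2-Aa and H2-Ab1, outside the naming rule, differed by 0.20 ± 0.10 (adjusted p = 0.36) and 0.42 ± 0.12 (adjusted p = 0.12). The count was 1 without pool 3, 4 or 5 and 0 without pools 3 and 6. Of 20 interferon-stimulated genes none passed in limma, with a median of 0.12. The largest statistical support among them was for Oas1a, a sensor of double-stranded RNA, at 0.39 ± 0.15 (adjusted p = 0.245), and for the virus tether Bst2 at 0.34 ± 0.15 (adjusted p = 0.326).

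Complement genes rose through C1q and C3. Of 18 measured, 5 rose and none fell, with a median of 0.19. C1qc, a chain of the C1q molecule that macrophages make locally, had log2 ratios of -0.99, -0.18 and -0.87 at 16 weeks, against -1.93, -2.83 and -2.43 at 8 weeks, and rose 3.28-fold (adjusted p = 0.00813). C1qb rose 2.68-fold (adjusted p = 0.0111) and C1qa 2.60-fold (adjusted p = 0.0232). C3, the central component, rose 1.83-fold (adjusted p = 0.00813), and Cfp, properdin, rose by 0.74 on the log2 scale. The count was 3 without pool 3, 4 or 5 and 0 without pools 3 and 6, and without pool 1 the complement gene C6 fell. Of 21 coagulation and fibrinolysis genes, F7, which encodes clotting factor VII, rose 3.02-fold (adjusted p = 0.00573) and Plau rose as given above. F7 had log2 ratios of -0.20, 0.27 and -0.38 at 16 weeks, against -1.22, -2.15 and -1.73 at 8 weeks. Its cell receptor, tissue factor F3, differed by -0.15 ± 0.14 (adjusted p = 0.649). The median of the list was 0.07, and its count was 1 without pools 3 and 6.

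Lymphocyte lists held 3 calls in all. Of 16 T cell genes measured, 1 rose, with a median of 0.01. That gene was Il7r, the interleukin-7 receptor chain, with log2 ratios of -1.28, -0.35 and -1.22 at 16 weeks, against -2.73, -3.52 and -3.90 at 8 weeks. It rose 5.39-fold (interval 3.10 to 9.36, adjusted p = 0.00813) and ranked behind only Ibsp and Bex1 among all rises. The defining T cell genes Cd3e, Cd3d and Cd3g differed by -0.04 ± 0.11, 0.07 ± 0.06 and -0.02 ± 0.21 (adjusted p from 0.643 to 0.972). Cd5, a second T cell surface protein, differed by 0.47 ± 0.19 (adjusted p = 0.254). Cd2, an adhesion protein of T cells, had log2 ratios of 0.96, -0.08 and -0.28 at 16 weeks, against -0.07, -0.42 and 0.19 at 8 weeks. Without pools 3 and 6 no gene of this list passed.

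Of 14 B cell and plasma cell genes measured, 2 rose, with a median of 0.24. Cd22, an inhibitory lectin of B cells, had log2 ratios of -0.11, 0.18 and -0.74 at 16 weeks, against -1.88, -2.14 and -2.40 at 8 weeks, and rose 3.77-fold (adjusted p = 0.00513). Blnk, an adaptor of B cells and macrophages, rose 2.51-fold (adjusted p = 0.00973). Both passed whichever array was left out, so neither rested on pool 4. The B cell antigen receptor gene Cd79a differed by -0.06 ± 0.10 (adjusted p = 0.799). Other members were high in pool 4 alone: Jchain, the joining chain of secreted antibody, had log2 ratios of 3.31, -2.64 and -2.42 at 16 weeks, against -2.29, -2.81 and -3.14 at 8 weeks. Ms4a1, which encodes CD20, had 2.68, -1.17 and -1.06 at 16 weeks, against -0.47, -0.78 and -0.08 at 8 weeks. The mean of the list was 0.81 in pool 4, -0.42 in pool 5 and -0.51 in pool 6, against -0.56 to -0.65 in pools 1, 2 and 3. Jchain differed by 2.16 ± 1.23 (adjusted p = 0.453) and Ms4a1 by 0.59 ± 0.79 (adjusted p = 0.756).

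Neutrophil, mast cell and erythroid lists held no gene that passed in limma (0 of 14, 0 of 11 and 0 of 8, medians 0.14, 0.03 and -0.12). S100a9, a calcium-binding protein of neutrophils, had log2 ratios of 0.84, -0.51 and -0.27 at 16 weeks, against -0.81, -1.78 and 1.14 at 8 weeks, and S100a8 ran alongside it. The highest pool was thus at 8 weeks. Kit, the growth factor receptor of mast cells, differed by 0.72 ± 0.21 (adjusted p = 0.116), and Ms4a2, a chain of their IgE receptor, by 0.25 ± 0.07 (adjusted p = 0.12). Kit passed without pool 11. The hemoglobin gene Hba-a1 was lowest in pool 5, at -1.41, and lay between 0.31 and 0.60 in the 5 other pools. Hba-a1 has a near-identical copy, so its probes cannot be tied to it alone.

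**Figure D4:**
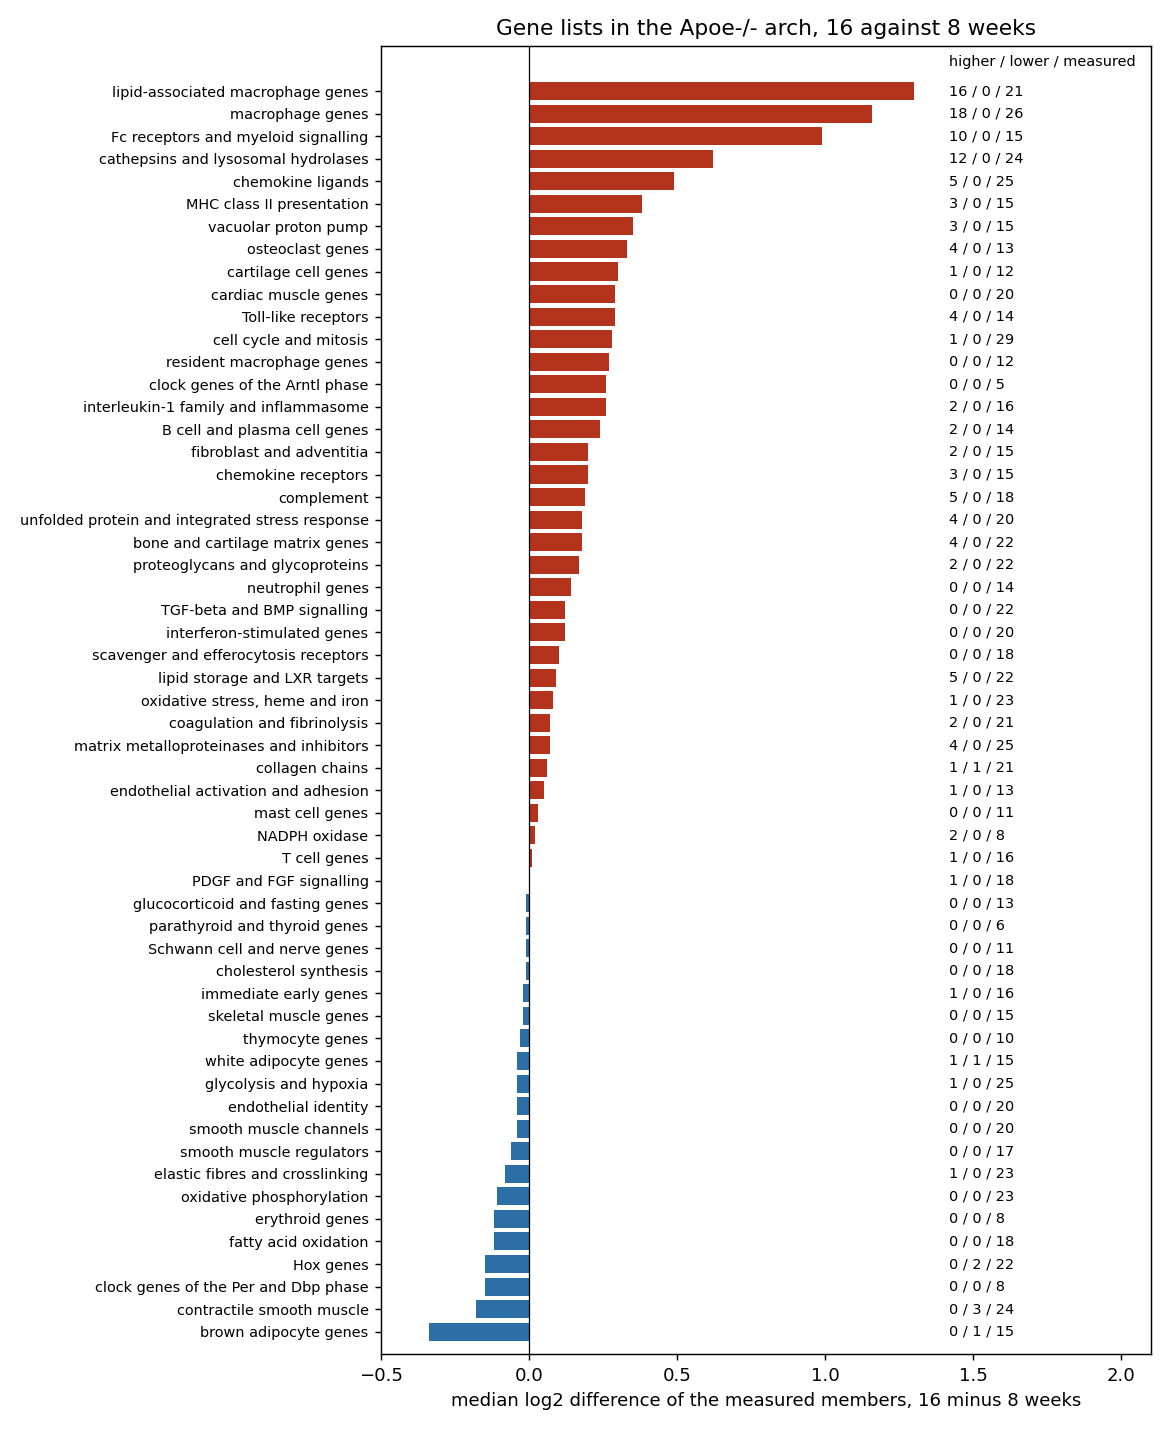
Median log2 difference between 16 and 8 weeks over the measured members of each gene list (x axis, bars from 0), with the number of members that rose, fell and were measured printed at the right. Lists of lipid-associated macrophages, macrophages and myeloid signalling have the longest bars to the right, and brown adipocyte and contractile smooth muscle genes the longest to the left.

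After quantile normalization the medians of several other lists moved by over 1.5 times. Examples, not the full set, were 0.04 for the proton pump, 0.02 for osteoclast genes, 0.09 for resident macrophages and 0.17 for chemokine ligands. The interleukin-1 family had 0.05, Toll-like receptors 0.14 and B cells 0.10. Bone and cartilage matrix genes had 0.10, complement 0.11, matrix-degrading enzymes 0.01, and, described below, endoplasmic reticulum stress genes 0.11 and proteoglycans 0.03. Scavenger and dead-cell receptors turned round, at -0.06 against 0.10 as deposited. Some medians grew in size, such as that of fatty acid oxidation, at -0.26 against -0.12. The median of the cardiac list, described below, was -0.09 there, against 0.29 as deposited.

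The contractile apparatus of smooth muscle was lower at 16 weeks in a few genes. Of 24 measured, 3 fell and none rose, against 0.507% of all genes falling, with a median of -0.18. Myl9, the regulatory light chain of smooth muscle myosin, had log2 ratios of 0.03, 0.02 and 0.25 at 16 weeks, against 0.61, 1.12 and 0.58 at 8 weeks. It fell by 0.67 on the log2 scale (SE 0.14, adjusted p = 0.0331). Ppp1r14a, whose protein blocks myosin phosphatase, had log2 ratios of -0.05, 0.06 and -0.06 at 16 weeks, against 0.55, 0.74 and 0.47 at 8 weeks. It fell by 0.60 (SE 0.12, adjusted p = 0.0231). Mylk, the kinase that switches on myosin, fell by 0.34 (SE 0.07, adjusted p = 0.0226), but its 3 probes differed by -0.78 to 0.03 and none passed on its own. The defining genes Myh11, Acta2 and Tagln did not pass, with differences of -0.50 ± 0.12 (adjusted p = 0.0608), -0.40 ± 0.11 (adjusted p = 0.0998) and -0.18 ± 0.09 (adjusted p = 0.397). For Myh11 all 3 pools at 16 weeks (0.08, -0.07 and 0.05) lay below all 3 at 8 weeks (0.53, 0.47 and 0.56). No contractile gene passed without pool 4, without pool 5, or without pools 3 and 6. The list means overlapped between times, with 0.04, -0.12 and 0.18 at 16 weeks, against 0.28, 0.33 and 0.10 at 8 weeks.

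Regulators and channels of smooth muscle held no gene that passed in limma (0 of 17 and 0 of 20, medians -0.06 and -0.04). Heyl, a Notch target of arterial muscle, differed by -0.69 ± 0.24 (adjusted p = 0.198), and the transcription factor Mef2c by -0.26 ± 0.09 (adjusted p = 0.195). Pde5a, which breaks down cyclic GMP, differed by -0.32 ± 0.10 (adjusted p = 0.118), and Gucy1a1, a subunit of the nitric oxide receptor, by -0.16 ± 0.09 (adjusted p = 0.415). Npr1, the receptor for atrial natriuretic peptide, which also raises cyclic GMP, was among the 20 largest falls. It had log2 ratios of 0.05, 0.11 and 0.11 at 16 weeks, against 0.65, 1.35 and 0.68 at 8 weeks, and fell by 0.80 (SE 0.18, adjusted p = 0.0391). Its call was lost in 8 of the 12 fits that left out an array.

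Position-dependent Hox genes were lower at 16 weeks in part. Of 22 measured, 2 fell and none rose, against 0.507% of all genes falling, with a median of -0.15. Hoxc6 had log2 ratios of -0.37, -0.28 and -0.05 at 16 weeks, against 0.81, 0.29 and 0.90 at 8 weeks, and fell by 0.90 (SE 0.15, adjusted p = 0.0109). Hoxa7 had -0.19, -0.11 and 0.15 at 16 weeks, against 0.65, 0.97 and 0.60 at 8 weeks, and fell by 0.79 (SE 0.11, adjusted p = 0.00744). Hoxb8 and the antisense RNA gene Hoxb5os, which were not on the list, were also among the 20 largest falls, at -0.85 ± 0.17 (adjusted p = 0.0235) and -0.74 ± 0.14 (adjusted p = 0.0172). The call of Hoxb8 was lost without pool 1, 3, 4 or 5 and that of Hoxb5os without pool 4 or pool 5, and both were lost without pools 3 and 6. Hox genes record the position of a tissue segment along the body axis. The labels do not say which strand the probes read, so signal of Hoxb5os and of the cluster it lies in may not be told apart. Without pool 4 or pool 5, or without pools 3 and 6, 1 gene of the list fell.

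Other large falls were in genes with varied roles. Smim5, a small membrane protein, had log2 ratios of -0.06, -0.15 and -0.03 at 16 weeks, against 1.11, 1.39 and 0.78 at 8 weeks. It was 2.25-fold lower (interval 1.84 to 2.76, adjusted p = 0.00513) and passed whichever array was left out. The uncharacterized gene 4631405J19Rik fell by 0.95 (SE 0.10, adjusted p = 0.00377), and the death-associated kinase Dapk2 by 0.73 (SE 0.10, adjusted p = 0.007). Rab17, a trafficking switch of epithelial cells, fell by 0.85 (SE 0.16, adjusted p = 0.0206), a call lost without pool 4 or pool 5. Slc22a2, an organic cation transporter, fell by 0.76 (SE 0.16, adjusted p = 0.0318), a call lost in 6 of the 12 fits without an array. Gkn3, a gastrokine gene known from stomach and from arterial endothelium of the brain, had log2 ratios of -0.50, 0.35 and -0.42 at 16 weeks, against 1.11, 0.70 and 0.98 at 8 weeks. It was 2.18-fold lower (interval 1.54 to 3.10, adjusted p = 0.0285), a call lost in 4 of the 12 fits without an array.

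The endothelial identity list held no call, and the adhesion list held 1. Of 20 endothelial identity genes none passed in limma, with a median of -0.04. Cldn5, a tight junction protein, had log2 ratios of -0.33, -0.19 and -0.04 at 16 weeks, against 0.21, 0.36 and 0.63 at 8 weeks, and differed by -0.59 ± 0.15 (adjusted p = 0.0658). The pools did not overlap, but the gene passed only without pool 1 among the fits that left out 1 array. Egfl7, a secreted protein of vessel walls, differed by -0.27 ± 0.16 (adjusted p = 0.471). Of 13 adhesion genes 1 rose, with a median of 0.05: Cd44, the hyaluronan receptor of leukocytes and smooth muscle, rose 1.47-fold (adjusted p = 0.00813), with differences of 0.20 and 0.92 for its 2 probes. Vcam1, the endothelial and smooth muscle ligand that captures monocytes, had log2 ratios of -0.79, -0.75 and -1.14 at 16 weeks, against -1.39, -3.11 and -2.67 at 8 weeks. Its difference of 1.5 ± 0.36 missed the threshold (adjusted p = 0.0558) and passed without pool 1.

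Matrix genes of the wall moved singly. Lum, lumican, a leucine-rich proteoglycan that organizes collagen fibrils, had log2 ratios of -0.57, -0.54 and -0.78 at 16 weeks, against -1.88, -2.41 and -3.04 at 8 weeks. It rose 3.52-fold (interval 2.28 to 5.41, adjusted p = 0.00813) and passed whichever array was left out. Lum and Thbs1, thrombospondin 1, a matrix protein that activates TGF-beta (1.43-fold, adjusted p = 0.0222), were the 2 rises among 22 proteoglycans and glycoproteins, with a median of 0.17. Lum and C3 were the 2 rises among 15 fibroblast genes, with a median of 0.20. Of 21 collagen chains, Col8a1, a short-chain collagen of growing intima, rose 1.85-fold (adjusted p = 0.00813), with differences of 0.38 and 1.40 for its 2 probes. Col18a1, the basement membrane collagen that yields endostatin, fell by 0.57 (SE 0.10, adjusted p = 0.014). Of 23 elastic fibre genes, Ltbp2, which binds fibrillin, rose 1.81-fold (adjusted p = 0.0372).

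Elastin itself, Eln, outside the naming rule, had log2 ratios of 0.02, -0.38 and -0.76 at 16 weeks, against 0.56, 0.68 and 0.06 at 8 weeks (difference -0.81 ± 0.20, adjusted p = 0.0592). Tgm2, a crosslinking transglutaminase, differed by -0.38 ± 0.09 (adjusted p = 0.0585). The medians of the collagen and elastic fibre lists were 0.06 and -0.08. Without pools 3 and 6 no fibroblast gene, no proteoglycan and no falling collagen passed. Without pool 5 the fall of Col18a1 and the rise of Ltbp2 were lost, and 1 proteoglycan rose without pool 3 or pool 5. The rise of Ltbp2 was also lost without pool 4, 10, 11, 12, 16, 17 or 18. Without pool 2 there were 3 collagen rises, and without pool 6 there were 2. Falls appeared when an array was left out: Eln without pool 3 or pool 4, Tgm2 without pool 1, and Mfap5, a microfibril gene, and Ogn, a small proteoglycan gene, without pool 2.

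Tnn, tenascin-W, an adhesion protein of developing bone and of tumour stroma, belonged to the 20 largest rises. It had log2 ratios of 0.17, 0.41 and -0.30 at 16 weeks, against -1.83, -0.79 and -2.74 at 8 weeks, and rose 3.68-fold (interval 2.06 to 6.58, adjusted p = 0.0279), a call lost without pool 4 or pool 5. Htr2b, a serotonin receptor of valves and vessels, had -1.37, -0.41 and -0.99 at 16 weeks, against -2.89, -2.75 and -2.86 at 8 weeks, and rose 3.76-fold (adjusted p = 0.00513). The 8-week pools of Htr2b lay close together, and all 3 later pools lay above them. Rnf128, a ubiquitin ligase first known from unresponsive T cells, rose 5.14-fold (adjusted p = 0.00813). The survival genes Bcl2a1b and Bcl2a1a rose 3.99-fold and 3.84-fold (adjusted p = 0.00813 each), but they are near-identical copies whose probes may share signal. Cd53, a tetraspanin of leukocytes, Lilrb4a, an inhibitory receptor of myeloid cells, and Cd300c2, an activating one, rose 3.76-fold, 3.85-fold and 3.55-fold (adjusted p = 0.00813, 0.014 and 0.00865), and the call of Lilrb4a was lost without pool 5.

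Growth factor genes held a single call. Of 22 TGF-beta and BMP genes none passed in limma, with a median of 0.12. The signal transducer Smad2 differed by 0.33 ± 0.10 (adjusted p = 0.139) and Tgfb3 by -0.23 ± 0.09 (adjusted p = 0.255). Of 18 PDGF and FGF signalling genes 1 rose, with a median of 0.00: Igf1, a growth factor of macrophages and smooth muscle, rose 1.94-fold (adjusted p = 0.0125), a call lost without pool 5 and without pools 3 and 6. Pdgfc, a ligand for PDGF receptors, differed by 0.96 ± 0.31 (adjusted p = 0.158). Of 29 cell cycle genes 1 rose (3.45%, against 1.89% of all genes). Differences lay above 0 for 26 of the 29, against 47.1% of all genes. The median was 0.28, and it was 0.14 after quantile normalization and 0.14 after scaling. The gene that rose was Cdca8, a subunit of the chromosomal passenger complex, at 1.95-fold (adjusted p = 0.0145). Leaving out pool 1 gave 7 rises, leaving out pool 6 gave 2, and leaving out pool 3, 4 or 5, or pools 3 and 6 together, gave 0. The mitotic kinase Bub1 differed by 0.64 ± 0.17 (adjusted p = 0.0774).

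Stress genes of the endoplasmic reticulum held 4 small rises. Of 20 measured, 4 rose and none fell, with a median of 0.18. Dnajb9, a co-chaperone induced by unfolded proteins, had log2 ratios of -0.10, 0.09 and -0.20 at 16 weeks, against -0.71, -0.80 and -1.01 at 8 weeks, and rose 1.71-fold (adjusted p = 0.00813). The chaperone partner Sdf2l1 rose 1.81-fold (adjusted p = 0.0221), the co-chaperone Dnajc3 1.36-fold (adjusted p = 0.0188), and Chac1, which degrades glutathione, 1.38-fold (adjusted p = 0.0452). The count was 1 without pool 4 or pool 5 and 2 without pools 3 and 6. Of 23 oxidative stress, heme and iron genes 1 rose, with a median of 0.08: Ftl1, the ferritin light chain, 1.92-fold (adjusted p = 0.0122). Heme oxygenase, Hmox1, differed by 0.95 ± 0.24 (adjusted p = 0.0716). The call of Ftl1 was lost without pool 5 and without pools 3 and 6, and Hmox1 passed beside it without pool 1 or pool 4.

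Energy metabolism genes did not pass, apart from 1. Of 23 oxidative phosphorylation and 18 fatty acid oxidation genes none passed in limma, with medians of -0.11 and -0.12. Uqcrc1, of respiratory complex III, differed by -0.28 ± 0.09 (adjusted p = 0.132), and Ndufs3, of complex I, by -0.32 ± 0.12 (adjusted p = 0.219). Ppara, the nuclear receptor that controls fat burning, differed by -0.57 ± 0.14 (adjusted p = 0.0592), and Hadh, a dehydrogenase of that pathway, by -0.29 ± 0.11 (adjusted p = 0.212). Ppara passed without pool 6. Of 25 glycolysis and hypoxia genes, Hk3, the hexokinase of myeloid cells, rose 2.00-fold (adjusted p = 0.0104), with differences of 0.38 and 1.62 for its 2 probes. The median of that list was -0.04, and Aldoa, aldolase A, differed by -0.24 ± 0.08 (adjusted p = 0.208). The call of Hk3 was lost without pools 3 and 6, and without pool 2 the peptide hormone gene Adm fell.

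Markers of tissues around the arch differed between single pools. Of 20 cardiac muscle genes none passed in limma, with a median of 0.29, and their mean log2 ratio was -0.38, -1.11 and 0.33 in pools 4, 5 and 6 at 16 weeks, against -0.26, -0.41 and -1.67 in pools 1, 2 and 3 at 8 weeks. Myl7, an atrial myosin light chain, had -0.10, -2.28 and 1.80 at 16 weeks, against 0.48, -3.19 and -3.08 at 8 weeks. Of 15 brown adipocyte genes 1 fell, with the lowest median of any list, -0.34. It was Prdm16, the brown fat regulator that arterial endothelium and smooth muscle also express, with log2 ratios of 0.05, 0.10 and 0.00 at 16 weeks, against 0.82, 0.88 and 0.54 at 8 weeks (fall of 0.70, SE 0.10, adjusted p = 0.00734). Cidea, a lipid droplet protein of brown fat, differed by -0.97 ± 0.26 (adjusted p = 0.0867), and the list's mean was 0.06, -0.26 and 0.18 at 16 weeks, against 0.36, 0.12 and 0.52 at 8 weeks. Without pool 2 the count of falls was 4, and without pool 1 it was 2. The part of surrounding fat or heart muscle in the differences above was not tested.

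The largest fall of all was in a lung gene. Sftpc, surfactant protein C of the lung's alveoli, had log2 ratios of 0.20, -0.06 and -0.12 at 16 weeks, against 0.88, 0.90 and 2.04 at 8 weeks. It was 2.41-fold lower (interval 1.64 to 3.56, adjusted p = 0.0259), a call lost in 3 of the 12 fits without an array. The surfactant genes Sftpb and Sftpa1, chosen after their values were seen, were also highest in pool 3, at 1.21 and 1.70. Their differences were -0.67 ± 0.21 (adjusted p = 0.148) and -1.0 ± 0.34 (adjusted p = 0.187). The part of lung tissue in this fall was not tested.

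White adipocyte genes gave 1 rise, Lpl, and 1 fall, the glycerol channel Aqp7 (-0.36 ± 0.08, adjusted p = 0.0391), among 15 measured, with a median of -0.04. The fall of Aqp7 passed only in the fits without pool 2 or pool 6 among those that left out 1 array, and neither gene passed without pools 3 and 6. Of 12 cartilage cell genes Hapln1 alone rose, with a median of 0.30, and aggrecan, Acan, differed by 0.65 ± 0.19 (adjusted p = 0.109). The count was 0 without pool 3, 4, 5 or pools 3 and 6, and 2 without pool 2 or pool 6. Skeletal muscle, Schwann cell, thymocyte and parathyroid lists held no gene that passed in limma (of 15, 11, 10 and 6 measured), with medians from -0.03 to -0.01. Rag1, the recombinase of thymocytes, had log2 ratios of -2.19, -0.82 and 0.30 at 16 weeks, against 0.85, -0.47 and 0.63 at 8 weeks.

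Genes sensitive to handling or time of day were checked in the same way. Of 16 immediate early genes 1 rose, with a median of -0.02: Egr2, a transcription factor of macrophages and nerve sheath, 2.33-fold (adjusted p = 0.0144), a call lost without pool 4 or pool 5. Clock and fasting lists held no gene that passed in limma (of 5, 8 and 13 measured, with medians of 0.26, -0.15 and -0.01). Arntl, the core clock activator, had log2 ratios of -0.02, -0.18 and 0.13 at 16 weeks, against 0.01, -0.91 and -0.13 at 8 weeks, so pool 2 was low. Nr1d1, a clock repressor of the opposite phase, differed by -0.44 ± 0.14 (adjusted p = 0.161) and was highest in pool 2, at 0.84. The glucocorticoid-induced gene Tsc22d3 differed by 0.74 ± 0.27 (adjusted p = 0.215) and passed without pool 3. Without pool 2 the clock output gene Nfil3 fell.

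The genes of this step were also set against the 24-week and wild type pools, whose ratios did not enter the difference between 16 and 8 weeks but whose spread entered the fit that called it. Of the 372 genes that rose, 356 were higher at 24 weeks than in wild type (95.7% of the rises and 15.6% of the 2285 genes higher there), against 11.6% of all genes. Of the 100 that fell, 88 were lower (88.0% of the falls and 3.97% of the 2219 genes lower there), against 11.3% of all genes. These 2 comparisons share no pool, but they share the reference and the spread of the fit. The mice at 24 weeks of diet were also older and longer on the diet than the wild type mice. Sftpc and Gkn3, both among the 20 largest falls, were exceptions: at 24 weeks they differed from wild type by -0.24 (adjusted p = 0.543) and 0.02 (adjusted p = 0.965).

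**Figure D5:**
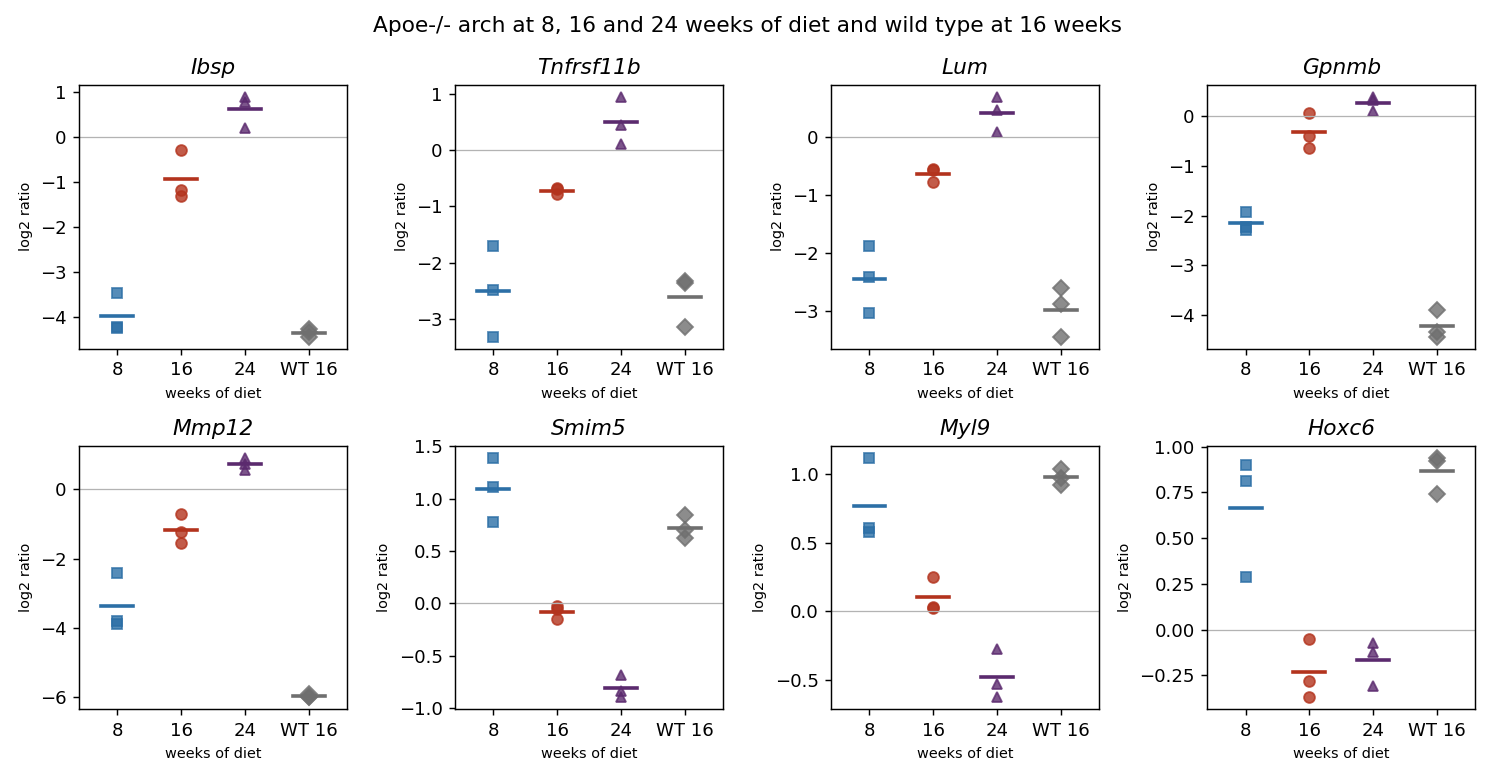
Log2 ratios of 8 named genes (y axis) in the Apoe-/- pools at 8, 16 and 24 weeks of diet and in the wild type pools at 16 weeks (x axis), with points for pools and lines for means. Ibsp, Tnfrsf11b and Lum lie near the wild type pools at 8 weeks, while Gpnmb and Mmp12 lie above them. Hoxc6 is as low at 16 as at 24 weeks.

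At 8 weeks some of the genes that rose lay near the wild type pools and others already lay above them. The wild type mice had 16 weeks of diet and were 24 weeks old, while the mice at 8 weeks of diet were 16 weeks old. Genotype, age and length of diet therefore cannot be told apart in that comparison. The comparisons of 8 weeks with wild type and of 24 with 16 weeks share pools with the main one, so their values are set side by side without a count. Ibsp differed by 0.38 at 8 weeks from wild type (adjusted p = 0.467), by 3.04 between 16 and 8 weeks and by 1.55 between 24 and 16 weeks (adjusted p = 0.0139). Tnfrsf11b gave 0.11, 1.78 and 1.22 for those differences, the last not past the threshold (adjusted p = 0.0741). Soat1 gave 0.14, 1.54 and 1.16, with the last past the threshold (adjusted p = 0.0112). Mmp12 gave 2.60, 2.21 and 1.90, with each of the 3 past the threshold. Gpnmb gave 2.07, 1.84 and 0.59, the last not past the threshold (adjusted p = 0.096). Hoxc6 gave -0.20, -0.90 and 0.07, with only the step from 8 to 16 weeks past the threshold. Smim5 gave 0.37, -1.17 and -0.73, the first not past the threshold (adjusted p = 0.156).

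Whether the second step differed in size from the first was tested for every gene. In limma 0 genes passed (smallest adjusted p = 0.765), with 983 at an unadjusted p under 0.05, and no single array left out changed that count. After quantile normalization 865 genes passed, and 469 passed after scaling, so the answer turned on the scale of the arrays. The genes with the smallest p were Gprasp2, Mboat2, Rps6, Prickle1 and Uqcc2, none of which passed the adjusted threshold between 16 and 8 weeks. Rps6, a ribosomal protein, had log2 ratios of -0.37, -0.22 and -0.42 at 16 weeks, against -0.12, 0.11 and -0.03 at 8 weeks, and 0.14, 0.39 and 0.27 at 24 weeks. Among the genes named above, the first step was larger than the second by 1.97 for Bex1 (unadjusted p = 0.00706) and by 1.49 for Ibsp (unadjusted p = 0.012), with adjusted p = 0.821 for both.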

How the data were processed

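RNA of pooled aortic arches (column-purified with DNase treatment and amplified with aminoallyl nucleotides, per the labels' protocols) was hybridised on 2-colour arrays with the pool in Cy5 and the Apoe-/- reference in Cy3 and no dye swap. The authors deposited 1 log ratio per probe and array, which was taken as log10, a common base for such arrays. The labels do not state the base, and the values do not settle it. Multiplying by 3.322 gave the log2 values used here. The direction was read as pool over reference from the dyes in the labels and from Apoe, which averaged 2.49 in wild type. The labels name no scanner, background correction or normalization, and no array was normalized again for the reported results. With no intensities, depth and background are unknown, and the number of arrays limits the precision.

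Of 39556 probes, 23283 had 1 gene symbol and 16273 had none. Symbols were updated through RefSeq, probes of a gene were averaged, and the 19705 of 19896 genes with a value on all 12 arrays were fitted in limma 3.58.1 (R 4.3.3) with 1 mean per group and a shared spread. P-values were adjusted over all genes by the Benjamini-Hochberg method, and calls are at an adjusted p under 0.05. Errors after ± are standard errors of the difference, with n = 3 pools in each group, and intervals are at 95%. Nothing in the labels says how mice were assigned to pools. The fit was tested on simulated data in which a gene had the same spread on every array. The real arrays differed in spread, so that test does not bear on how the calls depend on scale.

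Genes were named by rule: the 20 largest rises and falls among called genes without overlap of pools, up to 4 called members of each list with the smallest p (up to 2 members where fewer than 2 were called), the members of marker lists that varied most between pools, Apoe, and the 5 genes with the smallest p for the difference of steps. Genes said to lie outside this rule, defining genes, called members beyond the fourth of a list, and genes that passed only when an array was left out were chosen after their values were seen. The comparison and the gene lists were chosen with earlier results of these data known. Promoter sequences came from RefSeq.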

Additional observations from a re-analysis of the deposited data

Results flagged for a closer look

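Probes without a gene symbol were not used in the comparison. When every probe was fitted on its own in limma, 85 of 16129 such probes differed between 16 and 8 weeks at an adjusted p under 0.05, 58 higher and 27 lower at 16 weeks. This was 0.527% of them, against 1.92% of the probes with a symbol. What these probes measure was not tested.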

How the results depend on the processing

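The counts of calls depended on how the arrays were scaled and on which arrays shared the estimate of spread. Against 472 genes (372 higher, 100 lower), limma called 0 with only the 6 arrays, 1 after quantile normalization (higher, 0 lower), 0 after scaling every array to 1 median absolute deviation, and 153 without pools 3 and 6 (121 higher, 32 lower). Array weights left 242 higher and 101 lower. Of 2 alternatives chosen after seeing the data, quantile normalization without pool 2 left 0, with 2175 genes at an unadjusted p under 0.05, and the 9 Apoe-/- arrays alone left 281 higher and 64 lower. At an unadjusted p under 0.05 there were 1914 genes with 6 arrays, 1924 after quantile normalization and 1816 after scaling. Leaving out 1 array gave 167 to 758 calls, 136 to 567 higher and 31 to 191 lower. Genes whose steps differed numbered 0 as reported, 865 after quantile normalization, 469 after scaling, 701 after quantile normalization without pool 2, and 1 (Mgp) when genes with at least 2 values a group were kept. Ctsk and Cd14 turned round, at -0.109 and -0.105 after quantile normalization and -0.002 and -0.066 when pool 2 was left out as well. Over the 101 called genes named by rule, 2323 values under alternatives kept direction and call in 1592, kept direction without the call in 727 and reversed in 4. Medians of lists moved by over 1 SD between pools in 85 of 1288 cases. No paired analysis was possible because the groups share no pool numbers. Each group held 3 pools, pool 2 was the widest array, and 409 of the called genes rested on a single probe.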
